A study of Mus musculus with 16 samples.

Results

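The 9 genes described here control how blood clots form and dissolve: tissue factor (F3), coagulation factors VII (F7) and X (F10), tissue factor pathway inhibitor (Tfpi), thrombomodulin (Thbd), the endothelial protein C receptor (Procr), urokinase (Plau), the urokinase receptor (Plaur) and tissue plasminogen activator (Plat). They were chosen by name from this pathway, with earlier results of these data known. All 9 were measured, each by 1 probe, among 16481 genes with a symbol and 20629 features tested in all. The samples were lungs of male C57/BL6 mice aged 8 weeks. The exposed mice inhaled aerosolised lipopolysaccharide (LPS), a cell-wall toxin of Gram-negative bacteria, for 5 days and were sampled when exposure ended, and the control mice breathed air for 5 days. RNA of 3 mice was pooled, giving 4 LPS pools and 4 air pools, and each pool was hybridised on 2 two-colour arrays with the dyes exchanged, against a commercial universal mouse reference RNA.

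Clotting after injury starts when tissue factor, a membrane protein, meets plasma factor VII. The complex activates factor X, which with its cofactor turns prothrombin into thrombin, and thrombin makes fibrin. Tfpi blocks the starting complex. Thrombomodulin turns thrombin into an activator of protein C, which the endothelial protein C receptor holds for activation. Activated protein C shuts the cascade down. Fibrin is removed by plasmin, made from plasminogen by urokinase at its receptor or by tissue plasminogen activator. In inflamed lungs, fibrin in the air spaces is a known feature, and alveolar macrophages and epithelium are known sources of tissue factor and urokinase.

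A level below is log2(lung/reference), averaged over the 2 arrays of a pool, and a difference is LPS minus air with its standard error (SE) from limma. A level is thus relative to the reference RNA and is compared between pools for 1 gene, never between genes. Signal was positive in both channels on 96.1% to 99.5% of spots per array, and the median lung signal was 4.28 to 28.2 times the local background. One array was left out, that of air pool 4 with lung in Cy3, because its file joins images of 2 arrays; 15 arrays remained and their number limits the precision. A batch here means pools whose spot intensities were made with the same release of TIGR Spotfinder. Release 2.2.3 was used for the first batch (LPS pools 1 and 2, air pools 3 and 4). Release 2.2.4 was used for the second batch (LPS pools 3 and 4, air pools 1 and 2). The image names also carry a week number, which was 1 on every LPS array, 4 in air pools 1 and 2, and 8 in air pools 3 and 4. The titles of all arrays say 1 week, which the image number matches for LPS and not for air. No source used here states the meaning of the image number, and it cannot be told apart from exposure in any difference. The labels describe 4 LPS pools, but the image names give LPS pools 1 and 3 a common letter and LPS pools 2 and 4 another, so the independence of the 4 is not assured. With LPS pools of the same letter averaged, an alternative chosen after the data were seen, F10, Procr and Plaur were called (adjusted p = 0.0136, 0.00534 and 0.0327) and the calls of F3 (0.097) and Plau (0.14) were lost (limma). Genes of alveolar type 2 cells, which mark lung tissue, had a mean level of 3.16 to 5.08 across the 8 pools.

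After 5 days of inhaled LPS, 5 of the 9 genes were higher in the lung and 0 were lower: F10 (4.74-fold), Procr (3.24-fold), F3 (3.23-fold), Plau (1.93-fold) and Plaur (1.85-fold). F7, Tfpi, Thbd and Plat did not pass the test (limma, two-sided, Benjamini-Hochberg adjusted over all features, threshold 0.05). At an unadjusted p under 0.05 the counts were 6 higher and 0 lower of the 9, beside 3044 higher and 1592 lower of all 20629 features. Over all features, 6.67% were called, 5.95% as higher and 0.713% as lower. The median difference of the 9 genes was 0.89, beside 0.0092 over all features. Because the genes were chosen with earlier results of these data known, these contrasts with all features are no independent test. The pools did not overlap for 6 of the 9 genes, the 5 risers and Plat, each time with LPS above air, as for 11.3% of features with a value in all 8 pools (5.44% had every LPS pool below air). Net lung signal was larger than the local background on all 15 arrays for each of the 9 genes.

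**Figure D1:**
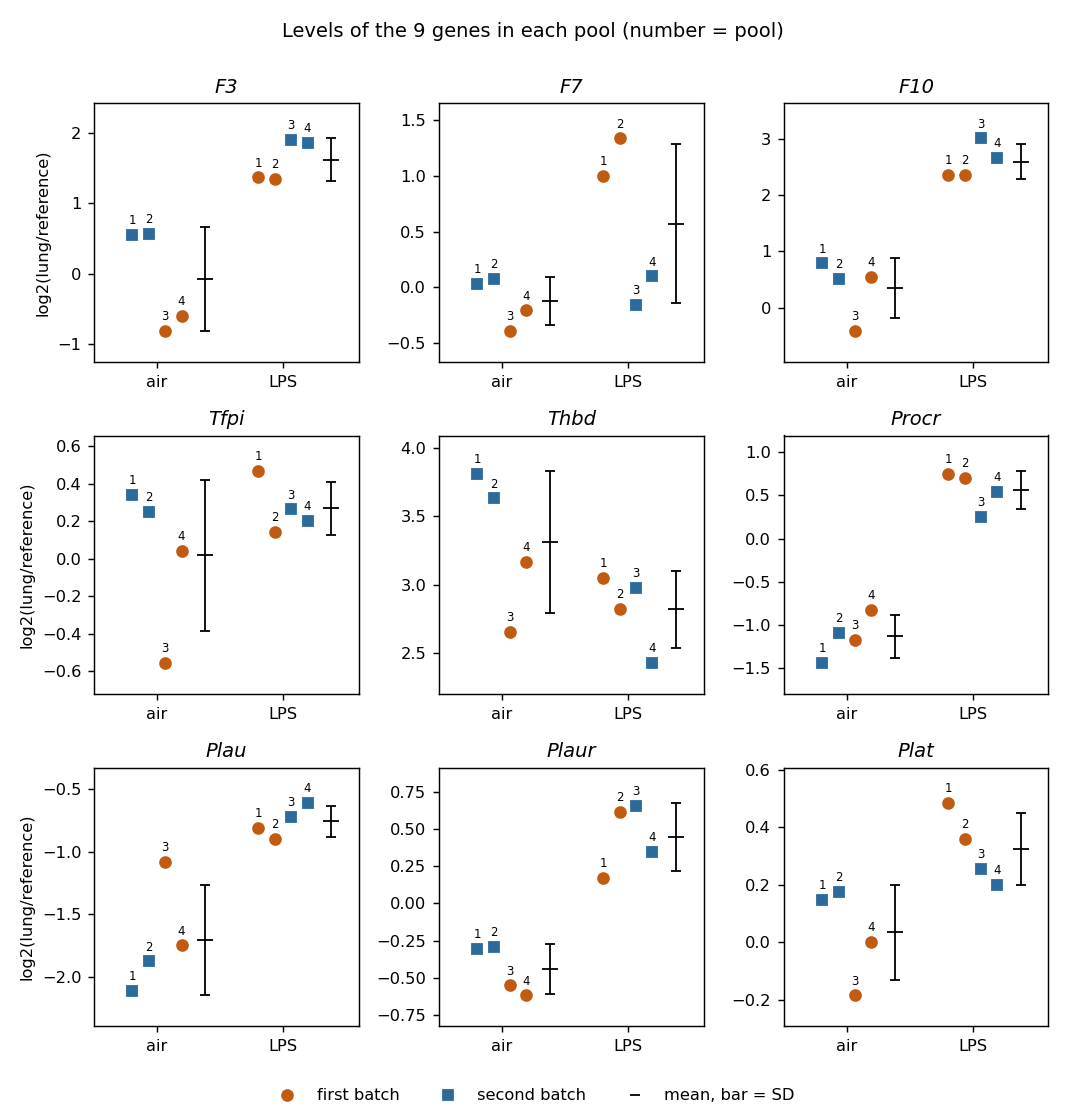
Level of each gene, log2(lung/reference), in the 4 air and 4 LPS pools; circles are the first batch, squares the second, numbers the pools, and the black bar the mean with its SD. The LPS pools of F10 (2.36 to 3.01), Procr, F3, Plau and Plaur lie above every air pool, and F7 divides into 2 high and 2 low LPS pools.

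Promoter windows of 250 bases before to 50 bases after the annotated start were found for 6 of the 9 genes in RefSeq (GRCm38.p6); Thbd, Plau and Plat had no entry in the table. Shown are the windows of the risers F3, Procr and Plaur, which have a match to the AP-1 motif, and of F10, which had the largest rise and has none. Several motifs were searched, all listed below, and the windows shown were chosen by AP-1 and by the size of the rise. Capitals mark TGANTCA, the core sequence bound by AP-1, a family of stress-induced transcription factors; the motif reads the same on both strands.
F3 promoter, chr3:121723287-121723586, plus strand: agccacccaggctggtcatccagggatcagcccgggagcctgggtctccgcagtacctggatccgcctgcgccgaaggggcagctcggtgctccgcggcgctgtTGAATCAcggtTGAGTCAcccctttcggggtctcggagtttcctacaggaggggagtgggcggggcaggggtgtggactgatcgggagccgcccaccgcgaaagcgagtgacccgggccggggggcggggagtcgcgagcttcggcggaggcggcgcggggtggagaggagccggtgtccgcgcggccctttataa
Procr promoter, chr2:155750967-155751266, plus strand: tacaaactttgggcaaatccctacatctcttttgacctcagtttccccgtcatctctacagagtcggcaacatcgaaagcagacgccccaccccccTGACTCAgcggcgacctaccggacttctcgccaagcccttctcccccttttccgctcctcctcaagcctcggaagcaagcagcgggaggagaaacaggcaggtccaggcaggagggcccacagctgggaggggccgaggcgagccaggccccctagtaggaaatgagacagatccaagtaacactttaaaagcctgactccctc
Plaur promoter, chr7:24462233-24462532, plus strand: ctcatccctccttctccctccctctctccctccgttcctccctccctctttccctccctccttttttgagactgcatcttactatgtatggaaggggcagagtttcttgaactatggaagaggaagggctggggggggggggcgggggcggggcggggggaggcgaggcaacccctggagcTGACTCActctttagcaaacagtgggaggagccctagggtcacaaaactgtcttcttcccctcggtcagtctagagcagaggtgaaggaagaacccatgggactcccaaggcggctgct
F10 promoter, chr8:13037058-13037357, plus strand: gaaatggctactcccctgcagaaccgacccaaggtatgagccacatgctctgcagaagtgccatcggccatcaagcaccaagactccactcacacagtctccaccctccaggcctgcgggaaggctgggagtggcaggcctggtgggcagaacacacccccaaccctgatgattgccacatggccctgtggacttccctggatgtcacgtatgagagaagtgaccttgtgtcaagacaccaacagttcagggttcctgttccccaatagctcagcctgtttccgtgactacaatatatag
The F3 window holds 2 matches, at positions -146 to -140 and -135 to -129 from the start. Procr has 1 at positions -154 to -148 and Plaur 1 at -69 to -63. TGANTCA was found in 7.81% of all 32851 promoter windows of this length, and in 3 of the 7 windows of these genes (Tfpi has 2). The windows of F7, F10 and Tfpi held no match to these letters. Searched on both strands, GGGCGG, the GC box, lay in windows of F3, Plaur and Tfpi and in 35.7% of all windows. Other motifs were TTGCNNAA for C/EBP (Plaur and Procr, 10.8% of all windows) and GAGGAA for PU.1 (F7, Plaur and Tfpi, 28.3%). TATAAA, the letters of the TATA box, lay in windows of F3 and Tfpi and in 13.6% of all windows. In F3 and in Tfpi the match was on the opposite strand, and that of F3 lay at the end of the window, after the annotated start. The kappaB consensus of NF-kB was found in 0 of the 7 windows and in 4.51% of all. A match describes the letters only.

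Of the genes that start clotting, F3 and F10 were higher in LPS lungs, while F7 did not pass. F3 encodes tissue factor, the trigger of the cascade. In air pools 1 to 4 its level was 0.55, 0.57, -0.81 and -0.60, and in LPS pools 1 to 4 it was 1.37, 1.35, 1.90 and 1.86. All LPS pools lay above all air pools, and air pools 3 and 4 lay far below air pools 1 and 2. F3 rose 3.23-fold, by 1.69 ± 0.32 (SE, 4 LPS and 4 air pools, adjusted p = 0.0126 by limma), with a 95% interval of 1.97-fold to 5.31-fold. Within the first batch the difference was 2.07 and within the second 1.32, and these differed from each other (-0.75 ± 0.19, adjusted p = 0.0457, limma interaction), as the batches did for 8.69% of all features. In both groups the pools of the first batch were the lower ones, by more in air than in LPS, and among the air pools batch and week number cannot be told apart. With only the arrays that carried lung in Cy3, where 3 air pools remain, the call was lost (1.39, adjusted p = 0.0923).

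F10 encodes the zymogen of factor Xa, the protease that forms thrombin; it is made mainly in the liver, and macrophages are a known further source. Its level was 0.78, 0.50, -0.42 and 0.54 in air pools 1 to 4. LPS pools 1 to 4 were at 2.36, 2.36, 3.01 and 2.66. The lowest LPS pool exceeded the highest air pool by 1.57, the widest such gap of the 9 genes. F10 rose by 2.25 ± 0.26 (95% interval 3.19-fold to 7.05-fold, limma adjusted p = 0.000714). Within the batches the rise was 2.30 (first) and 2.19 (second). In all 22 alternative settings F10 kept its call, with differences from 1.90 to 2.70. The median ratio of its lung signal to local background was 3.40 in air and 18.8 in LPS.

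F7 encodes factor VII, the plasma protease that tissue factor binds. It is the immediate neighbour of F10 among protein-coding genes on chromosome 8 in RefSeq, followed by Proz, which is not analysed here. The level of F7 was 0.03, 0.07, -0.40 and -0.21 in air pools 1 to 4. In LPS pools 1 and 2, both of the first batch, it was 1.004 and 1.34, whereas in LPS pools 3 and 4, of the second, it was -0.16 and 0.10. LPS pools 1 and 2 stood well above the air pools, LPS pool 4 lay just above the highest of them (0.07), and LPS pool 3 lay within their range. The difference over all pools was 0.69 ± 0.30 and did not pass (adjusted p = 0.212, 95% interval 1.01-fold to 2.59-fold). The first batch gave 1.47 and the second -0.08, and the difference between the batches was -1.56 ± 0.23 (adjusted p = 0.0213, limma interaction). All 4 LPS pools carry the same week number.

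Among the brakes on clotting, Procr was higher in LPS lungs, and Tfpi and Thbd did not pass. Procr encodes the endothelial protein C receptor, which holds protein C for activation by thrombin and thrombomodulin. In air its level was -1.44, -1.09, -1.17 and -0.83 in pools 1 to 4. With LPS it was 0.75, 0.70, 0.26 and 0.54. Lung thus lay below the reference in every air pool and above it in every LPS pool. Procr rose by 1.70 ± 0.17 (95% interval 2.50-fold to 4.19-fold, limma adjusted p = 0.000298), the smallest p of the 9 genes. Its rise was 1.73 and 1.66 within the batches, and it kept the call in all 22 alternatives (1.56 to 1.80). In air the median ratio of Procr lung signal to local background was 1.81, so its air level rests on dim spots.

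Thbd encodes thrombomodulin, which changes thrombin from a clotting into an anticoagulant enzyme and is densely present on lung capillaries. Its level was 3.81, 3.63, 2.65 and 3.16 in air pools 1 to 4. The LPS pools stood at 3.05, 2.82, 2.98 and 2.43. The groups overlapped, because air pool 3 lay below 3 of the 4 LPS pools. The difference of -0.50 ± 0.25 did not pass (adjusted p = 0.272, 95% interval 0.483-fold to 1.04-fold). Within the first batch it was 0.03 and within the second -1.02. The difference between the batches was -1.05 ± 0.32 and did not pass (adjusted p = 0.0762, limma interaction). With arrays also scaled to one another the value was 0.10, so no direction is given.

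Tfpi encodes the inhibitor of the complex of tissue factor and factor VIIa. The levels in air pools 1 to 4 were 0.34, 0.25, -0.56 and 0.04. Those in LPS pools 1 to 4 were 0.47, 0.14, 0.26 and 0.20. The groups overlapped, and air pool 3 stood below the rest. The difference was 0.25 ± 0.20 (adjusted p = 0.477, 95% interval 0.881-fold to 1.61-fold), with 0.56 and -0.06 within the batches. A rise of up to 1.61-fold lies within that interval.

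Of the 3 genes of plasminogen activation, urokinase and its receptor were higher, and Plat did not pass. Plaur encodes the urokinase receptor, which concentrates urokinase on the surface of leukocytes and epithelium. In air pools 1 to 4 the level was -0.31, -0.29, -0.55 and -0.62. The LPS pools had 0.17, 0.62, 0.65 and 0.34. Every LPS pool was above the reference and every air pool below it. Plaur rose by 0.89 ± 0.15 (95% interval 1.46-fold to 2.34-fold, limma adjusted p = 0.00722). The rise was 0.98 and 0.80 within the batches and 0.75 to 0.98 over the 22 alternatives, all of which kept the call. The median ratio of its lung signal to local background in air, 172.5, was the highest of the 9 genes.

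Plau encodes urokinase itself, the protease that makes plasmin on cell surfaces. Its level was -2.11, -1.88, -1.08 and -1.749 in air pools 1 to 4. The LPS pools 1 to 4 were at -0.81, -0.90, -0.72 and -0.61. The groups stayed apart by 0.18 only, because air pool 3 came close to the LPS pools. Plau rose by 0.95 ± 0.21 (95% interval 1.41-fold to 2.65-fold, limma adjusted p = 0.0233), and the 2 batches gave 0.56 and 1.33. The call was lost without any 1 of LPS pools 1, 3 and 4 or air pool 4 (adjusted p = 0.0579 to 0.0675). It was also lost with all 16 arrays (0.75, adjusted p = 0.217), in the first batch alone (0.56, adjusted p = 0.111), with arrays scaled to one another (0.74, adjusted p = 0.089) and with lung in Cy3 alone (0.82, adjusted p = 0.223).

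Plat encodes tissue plasminogen activator, the activator released by endothelium. The levels were 0.15, 0.17, -0.18 and 0.00091 in air pools 1 to 4. In LPS pools 1 to 4 they were 0.48, 0.36, 0.26 and 0.20. The groups did not overlap, but were only 0.024 apart. The difference of 0.29 ± 0.13 did not pass (adjusted p = 0.23, 95% interval 0.997-fold to 1.5-fold). It was 0.51 within the first batch and 0.07 within the second.

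**Figure D2:**
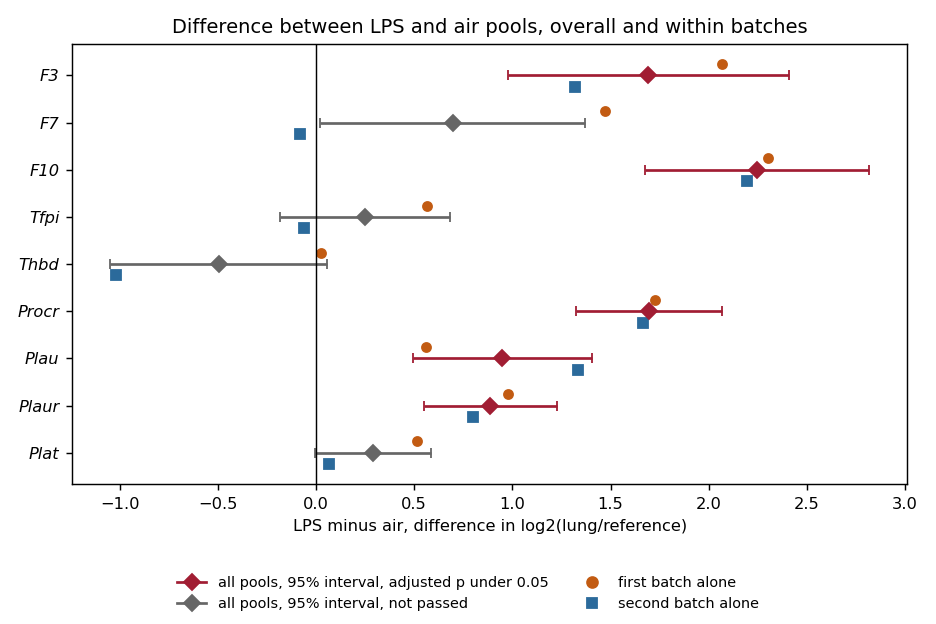
Difference between LPS and air pools for each gene on the log2 scale, with the 95% interval from limma (diamonds, red where the adjusted p is under 0.05) and the differences within the first (circles) and second batch (squares). F10, Procr and Plaur have nearly the same difference in both batches, whereas F7 is at 1.47 in the first and -0.08 in the second.

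The spread between the 2 arrays of a pool was smaller than the rises of F10 and Procr. The median gap between the 2 dye orientations was 0.34 for F10, 0.25 for Procr and 0.14 for Plaur over the 7 pools with both arrays. It was 0.51 for F3, with the largest gap, 1.24, in air pool 3. For F7 it was 0.57 and for Plau 0.40. A spot factor in the files, undefined there, was never below 1 for any of the 9 genes on these 15 arrays.

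Of 41 further coagulation and fibrinolysis genes, 35 were measured; 5 of these rose (Fgg, Tfpi2, Serpinc1, S100a10 and Serpinb2), 0 fell and 30 were not called. The share higher was 14.3%, beside 5.95% of all features, of which 0.713% were lower. At an unadjusted p under 0.05 the limma counts were 7 higher and 4 lower of the 35, beside 3044 and 1592 of all 20629 features. The median difference of the 35 genes was 0.12, beside 0.0092 over all features. These lists too were chosen with earlier results of these data known. Serpine2, F2rl1, Proz, Cpb2 and A2m are among those not analysed here. When batch entered the fit as a block, 7 were higher, adding F5 and the vitamin K reductase gene Vkorc1l1 (adjusted p = 0.0290), and 2 were lower, Proc and Vkorc1 (adjusted p = 0.0423), where 8.72% and 2.26% of all features were. Vkorc1l1 and Vkorc1 are named here after their values were seen.

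Among 14 clotting factors, Fgg, the gamma chain of fibrinogen, was higher and 13 did not pass. That share, 7.14%, was near the 5.95% of all features called higher. Fgg lay at -0.19, -0.46, -0.58 and -0.68 in air pools 1 to 4. With LPS it lay at 1.01, 0.51, 0.87 and 0.19. The groups did not overlap, and the difference was 1.12 ± 0.19 (limma adjusted p = 0.00755). Its lung signal was below the local background on 1 of 7 air arrays, and with all 16 arrays the call was lost (0.52, adjusted p = 0.735). It was lost with lung in Cy3 alone too (0.61, adjusted p = 0.532), and in the second batch alone (0.86, adjusted p = 0.116). The other fibrinogen chains, Fga (0.33 ± 0.19, adjusted p = 0.338) and Fgb (-0.03 ± 0.13, adjusted p = 0.914), did not pass. F5, the cofactor of factor Xa, was at 0.71 ± 0.19 (adjusted p = 0.053, and 0.036 with the batch as a block). The fibrin-crosslinking factor gene F13a1 was at 0.36 ± 0.23 (adjusted p = 0.375). Von Willebrand factor (Vwf), which tethers platelets and is made by endothelium, was at -0.04 ± 0.17 (adjusted p = 0.904).

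Of 7 measured anticoagulants, 2 were higher and 5 did not pass. Tfpi2, a serine protease inhibitor related to Tfpi that also blocks plasmin, lay at 0.44, 0.08, -0.50 and -0.23 in air pools 1 to 4. In the LPS pools it lay at 0.96, 0.74, 1.42 and 1.41. It rose by 1.18 ± 0.23 (limma adjusted p = 0.0135), while Tfpi itself did not pass; the difference between the 2 genes was not tested. The call of Tfpi2 was lost under median centring (adjusted p = 0.0541) and with lung in Cy5 alone (0.0612) or in Cy3 alone (0.114). Antithrombin (Serpinc1), the plasma inhibitor of thrombin and factor Xa, lay at -1.64, -1.71, -1.84 and -2.003 in air pools 1 to 4. Its LPS levels were -0.36, -0.91, -1.09 and -1.10, all above the air pools. It rose by 0.93 ± 0.18 (limma adjusted p = 0.0141), with 1.29 and 0.57 within the batches. That call was lost with all 16 arrays (0.59, adjusted p = 0.442), under median centring (0.0658) and with lung in Cy3 alone (0.135). Protein C (Proc), the substrate that Procr binds, was at -0.65 ± 0.24 (adjusted p = 0.142, and 0.0152 with the batch as a block). Its cofactor protein S (Pros1) was at -0.08 ± 0.19 (adjusted p = 0.828).

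Of 8 measured genes of fibrinolysis and its inhibitors, 2 were higher and 6 did not pass. S100a10, the partner of annexin A2 in a cell-surface receptor for plasminogen, lay at -1.62, -1.72, -2.94 and -2.76 in air pools 1 to 4. Under LPS it lay at -0.54, -1.01, -0.83 and -1.30. It rose by 1.34 ± 0.31 (limma adjusted p = 0.0294), by 2.08 in the first batch and by 0.61 in the second, and the batches differed (adjusted p = 0.0306). The call was lost without any 1 of LPS pools 1, 2 and 3 and air pools 3 and 4 (adjusted p = 0.0674 to 0.0932), and in 5 more of the 22 alternatives, among them all 16 arrays (0.89, adjusted p = 0.351). Annexin A2 (Anxa2) was at 0.10 ± 0.14 (adjusted p = 0.702) and plasminogen (Plg) at -0.02 ± 0.18 (adjusted p = 0.954). Serpinb2, plasminogen activator inhibitor 2, had LPS levels of 0.99, 1.07, 0.36 and 0.11 and air levels of -0.40, -0.19, -0.03 and -0.16. Its difference was 0.83 ± 0.22 with a limma adjusted p of 0.0496. Its lung signal was below the local background on 4 of 7 air arrays, and in the 8 fits without 1 pool it kept the call only without LPS pool 4 (adjusted p = 0.0208 to 0.149).

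The 3 measured protease-activated receptors, which signal in response to clotting proteases, did not pass, with F2r, the thrombin receptor, at 0.23 ± 0.22 (adjusted p = 0.561). None of the 3 vitamin K cycle genes passed either; at an unadjusted p under 0.05 the 2 lists gave 1 higher and 2 lower. Of these, Ggcx carboxylates F7, F10 and the other vitamin K-dependent factors, and the Vkorc1 and Vkorc1l1 enzymes regenerate the vitamin it needs.

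**Figure D3:**
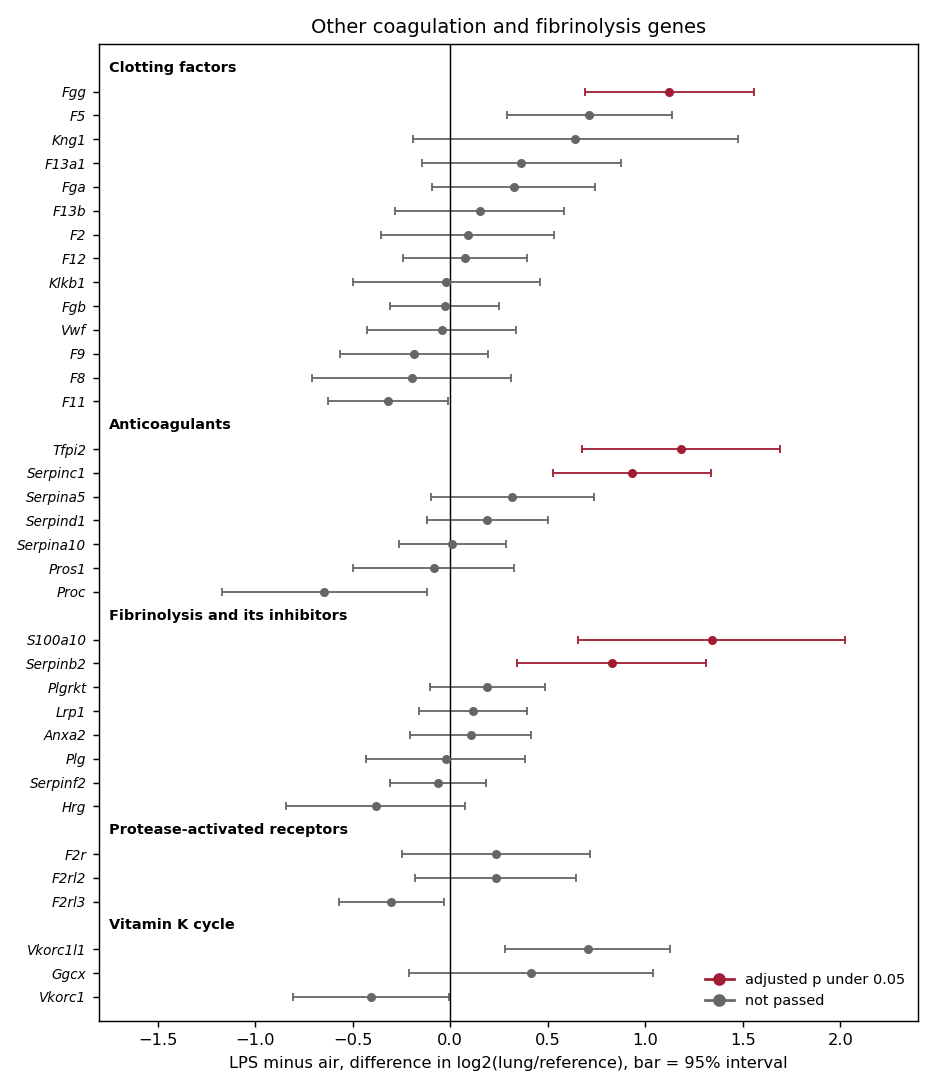
Difference between LPS and air pools on the log2 scale, with 95% intervals from limma, for 35 further genes of the pathway grouped by role. Red marks the 5 genes with an adjusted p under 0.05: Fgg, Tfpi2, Serpinc1, S100a10 and Serpinb2.

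Some markers of the cells that can express these genes also differed between the groups. Over all features, 5.95% were called higher and 0.713% lower. At an unadjusted p under 0.05 (limma), 3044 features were higher and 1592 lower of 20629. In whole-lung RNA, more cells of a type and more RNA per cell cannot be told apart. Of 9 measured macrophage and monocyte markers, 5 were higher and 0 lower (8 and 0 at an unadjusted p under 0.05, limma), with a mean level of 1.44 to 1.95 in the LPS pools and 0.351 to 0.865 in the air pools. The defining marker Adgre1, the F4/80 antigen, rose by 1.05 ± 0.18 and the high-affinity Fc receptor Fcgr1 by 1.25 ± 0.13. Siglecf, a marker of alveolar macrophages, was at -0.05 ± 0.17 (adjusted p = 0.898). Of 6 neutrophil markers 3 were higher and 0 lower (4 and 0 at an unadjusted p under 0.05, limma). Their mean level was 1.74 to 2.36 in LPS and 0.0826 to 1.10 in air. Cxcr2 (0.93 ± 0.31, limma adjusted p = 0.106), Mpo (-0.096 ± 0.13, 0.702) and Elane (0.29 ± 0.23, 0.491) did not pass. The part of these cells in the rises of F3, F10, Procr, Plau and Plaur was not tested.

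Of 14 endothelial markers 1 was higher (Icam2) and 0 were lower (1 and 1 at an unadjusted p under 0.05, limma), with a median difference of -0.18 and mean levels of 1.08 to 2.11 in LPS and 1.32 to 2.15 in air. These ranges overlapped, and the part of endothelial cells in the rise of Procr was not tested. Of 9 platelet markers, 0 were higher or lower (limma; 0 and 1 at an unadjusted p under 0.05), and the mean levels of 0.237 to 0.554 in LPS and 0.188 to 0.596 in air overlapped as well. Hepatocyte genes, the main source of plasma factors outside the lung, were 0 of 5 higher or lower (limma, also 0 at an unadjusted p under 0.05), with mean levels of 0.0357 to 0.277 in LPS and 0.321 to 0.535 in air. The LPS range of this list lay below its air range. The part of hepatocyte RNA in the rises of F10, Fgg and Serpinc1 was not tested. Of 6 fibroblast markers, 1 was higher, Pdgfra (0.80 ± 0.20), and 0 were lower (4 and 0 at an unadjusted p under 0.05, limma). Their mean level was -0.234 to 0.157 in LPS and -0.425 to -0.149 in air, and their median difference was 0.50. Of 4 smooth muscle markers Acta2, which activated fibroblasts also express, was higher (0.86 ± 0.22). Myh11 (-0.32 ± 0.43), Tagln (-0.05 ± 0.18) and Cnn1 (-0.25 ± 0.13) did not pass. The list had a median difference of -0.15, with mean levels of -0.148 to 0.590 in LPS and -0.00371 to 0.417 in air. The part of these cells in the rises was not tested either. Of 6 alveolar type 1 markers Pdpn was higher (1.34 ± 0.17) and 5 did not pass.

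The genes whose levels followed each member most closely over the 8 pools were ranked by Pearson's r among 16330 genes. The 8 points share their arrays and fall into 2 groups, so r is a description of these pools. F10 was closest to the interferon-induced Ifit3 (r = 0.997) and to the actin-binding protein gene Cap1 (0.996). Procr was closest to the uridine kinase gene Uck2 and to Scfd1, both at 0.998. F3 was closest to Ninj1 (0.997), an adhesion molecule, and to moesin (Msn, 0.995), and Plaur to the TNF receptor family member Tnfrsf4 (0.991) and Senp2 (0.986). For Plau these were the lymphoid transcription factor gene Ikzf1 (0.992) and Ccdc86 (0.977). Among the genes that did not pass, F7 was closest to Acrv1 (0.98) and Man1c1 (0.976), and Tfpi to Gsc2 (0.983) and Anapc7 (0.978). Thbd was closest to Tmtc1 (0.987) and the syndecan gene Sdc2 (0.969), and Plat to Septin9 (0.995) and Herpud2 (0.991).

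**Figure D4:**
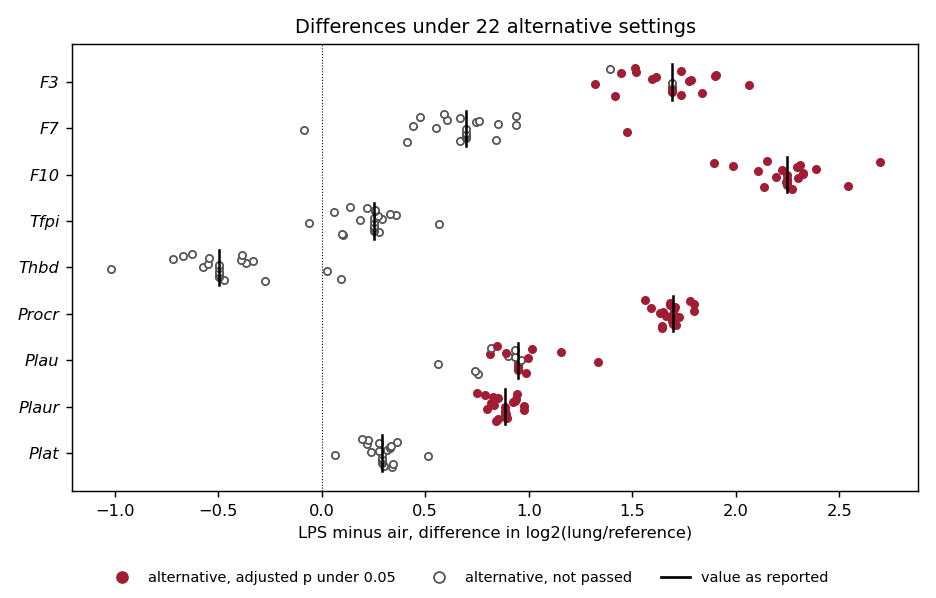
Differences between LPS and air for each gene on the log2 scale under 22 alternative settings; filled points passed the test and open points did not, and the black line is the value as reported. F10, Procr and Plaur were called in all 22, F3 in 20 and Plau in 14.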

How the data were processed

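Lung RNA pools (5 ug per labelling, 3 mice each) were compared with universal mouse reference RNA on 16 two-colour arrays of 22575 spots. Per the file headers, the authors made the deposited intensity values with TIGR Spotfinder 2.2.3 (first batch) or 2.2.4 (second batch). Their negative values show that background had been subtracted, and no normalisation is recorded. The deposited factor per spot is a score between 0 and 1 that the sources used here do not define. The authors also deposited log2 ratios, used only as an alternative; against the spots their r was 0.982 to 0.998 and their slope 0.961 to 0.997, and their medians ran from -0.136 to 0.0889. The deposited column of air pool 4 with lung in Cy3 appeared, from its slope of 0.297, to be on a log10 scale; no source used here states how the table was normalised. The Cy5 image of that array is named for air pool 3 with lung in Cy5, whose Cy5 signal correlated with it at r = 0.995 (next highest 0.896), so 15 arrays were used and the dye effect does not cancel in air pool 4.

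With R 4.3.3 and limma 3.58.1, spots of 0 or below were left out, ratios were loess-normalised within arrays, put on the log2 scale as lung over reference and averaged per pool. Features with at least 3 pools per group were tested by lmFit and eBayes, two-sided, and adjusted over all features. The fit was tested on simulated data. Genes were assigned by laying the platform's probe list on the 215 by 105 grid in the orientation, of 8 tried, in which the 2 probes of a gene correlated (r = 0.523 against at most 0.0701). Gene symbols of all 9 members matched RefSeq by gene number. Pool numbers did not pair the groups (r of deviations from -0.263 to -0.0374). The members and lists were chosen with earlier results of these data known. Named were the members, a list of pathway genes whatever their values, called pathway genes and the 2 genes most like each member. Alternatives covered arrays, dyes, normalisation, filters, batch, pool number and single pools.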

Additional observations from a re-analysis of the deposited data

Results flagged for a closer look

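Among the 9 members and the 35 further pathway genes measured (44 in all), the difference between LPS and air differed between the 2 batches for 5, by the limma interaction test; over all features 1792 (8.69%) did so. The second batch minus the first was -0.75 ± 0.19 for F3 (adjusted p = 0.0457), -1.56 ± 0.23 for F7 (adjusted p = 0.0213) and -1.47 ± 0.30 for S100a10 (adjusted p = 0.0306). It was -1.01 ± 0.21 for F2, prothrombin (adjusted p = 0.0330), and -0.97 ± 0.19 for F13b, the carrier subunit of factor XIII (adjusted p = 0.0281). For F3, S100a10 and F13b the air pools of the first batch were the lowest, and for F7 the LPS pools of the first batch were the highest. Among 88 sets of 4 pools, LPS or air for each gene, 1 held a pool far from the other 3 by Dixon's criterion, which chance meets in about 1 set in 20. It was LPS pool 2 for Kng1, the kininogen gene, at -1.08, while the other LPS pools lay between -0.28 and -0.17.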

How the results depend on the processing

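Of the 22 alternatives, 8 leave out 1 pool. The number of features called was 1375 as reported, 711 to 1262 without 1 pool (711, 752 and 829 without LPS pools 1, 2 and 3, and 766 without air pool 4), 501 with all 16 arrays, 735 under median centring, 2265 when batch was a block, 4707 within the first batch and 416 with lung in Cy3 alone. The 5 members called became 4 to 5 without 1 pool and 3 with lung in Cy3 alone (5 at an unadjusted p under 0.05, limma). The 5 other pathway genes became 3 to 5 without 1 pool, 3 without LPS pool 1, LPS pool 2 or air pool 4, 1 with all 16 arrays, 2 under median centring, 3 with an offset of 50, 9 when batch was a block, 8 within the first batch and 0 with lung in Cy3 alone (5 at an unadjusted p under 0.05). With the pool number as a replicate block, which did not pair the pools, 857 features, 4 members (F3 lost, adjusted p = 0.0614) and 3 other pathway genes were called. With LPS pools of the same image letter averaged, an addition to the 22, 500 features, 3 members and 3 other pathway genes (Tfpi2 and S100a10 lost) were called.

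Directions turned for F7 (-0.084) and Tfpi (-0.0637) in the second batch alone, and for Thbd in the first batch alone (0.0268) and with arrays scaled to one another (0.10); F7 passed in the first batch alone (1.47, adjusted p = 0.00183). The cause was not tested. Each member had 1 named probe, so the alternative of other probes was not run, and Serpinb2 had too few pools once dim spots were left out. The median of all features moved by less than 0.1 under every alternative run. Signal over background was lowest in air, of the genes called, for Serpinb2, Fgg, Procr, Tfpi2 and F10.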
